A study of Mus musculus with 26 samples.

Results

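KO8 is one of a pair of untreated HMCES-KO lines of mouse embryonic stem cells in this series, and its transcript levels were set against those of wild-type (WT) cells, gene by gene. Its members were the 2 libraries whose columns in the deposited count table carry the name KO8, out of 26 libraries in all, and their reference was the 2 WT libraries of that table, whose columns carry the name ES. The other knockout line of the table, KO7, also had 2 libraries, which entered the fit and stand beside KO8 where the lines differed. Per the labels, all of these were C57BL/6 embryonic stem cells grown in serum medium on gelatin with no added ligand or inhibitor, HMCES-KO in KO8 and KO7 and wild type in WT. The labels number the knockout lines HMCES-KO1 and HMCES-KO2, and no source used here says which of them is KO8, how the gene was disrupted or whether KO8 is 1 clone. Whether the libraries of a line come from separate cultures is not stated, so the p-values reflect the spread between these libraries alone, and that spread may be technical. A separate deposited table, in TPM, held 2 untreated HMCES-KO libraries and 2 untreated WT libraries. The knockout line behind them is not stated.

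HMCES binds abasic sites in single-stranded DNA. It was first described in embryonic stem cells, as a reader of 5-hydroxymethylcytosine. The study addressed how its loss shifts the transcription programmes of Nodal/activin and of BMP signalling. Embryonic stem cells in serum are a mixed population, in which a minority of cells switch on genes of the primitive endoderm, the lineage that forms the yolk sac. They also make much of their energy by glycolysis and depend on a steady supply of amino acids, which the integrated stress response guards.

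Hmces itself (chr6:87913976-87936613, mm10, plus strand) had 86.8 and 81.6 CPM (counts per 1000000, scaled between libraries) in KO8, 125 and 127 CPM in KO7 and 297 and 357 CPM in WT. Every KO8 library lay under every other library, at a mean of 25.7% of WT. The fall was 1.96 ± 0.08 on the log2 scale (± standard error, edgeR adjusted p = 1.77e-13), and KO8 stood below KO7 by a log2 difference of -0.58 ± 0.08 (edgeR adjusted p = 1.02e-05). How much HMCES protein was left was not measured in these tables. Total counts, in units of 1000000, were 9.57 and 10.4 in the KO8 libraries, 13.5 and 9.94 in the KO7 libraries and 11.9 and 10.0 in the WT libraries. The spread between replicates was uneven. Chi-square per degree of freedom, where counting noise alone gives about 1, was 1.63 in KO8, 1.62 in KO7 and 4.93 in WT. The cells carried the markers of embryonic stem cells. Pou5f1, the gene of OCT4, had 2578 and 2578 CPM in KO8 and 2180 and 2353 CPM in WT. All 8 markers of the 2-cell-like state were too low to test, with summed levels of 0.316 and 0.0970 CPM in KO8 and of 0.730 and 0.687 CPM in WT. Of 9 fibroblast markers, which feeder cells would carry, 4 were measured, and Lum and Postn had no count in any library.

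Of 13475 genes tested, KO8 differed from WT in 5248 at an edgeR adjusted p under 0.05 (38.9%). In total 2654 fell (19.7%) and 2594 rose (19.3%). Most of these changes were small. The median absolute log2 fold change over all tested genes was 0.24, the median itself was -0.01, and 4358 of the called genes moved by under 2-fold. The larger changes were mostly falls. At least 2-fold changes numbered 600 lower (4.45%) and 290 higher (2.15%), at least 4-fold changes 98 lower and 49 higher, and at least 8-fold changes 28 lower and 8 higher. Without regard to the test, the KO8 and WT libraries did not overlap in 35.2% of genes lower in KO8 and in 33.2% higher. Set against KO7 directly, KO8 differed in 3797 genes (28.2%), 1928 lower (14.3%) and 1869 higher (13.9%). Counts of calls in the gene lists below are to be read beside these shares.

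**Figure D1:**
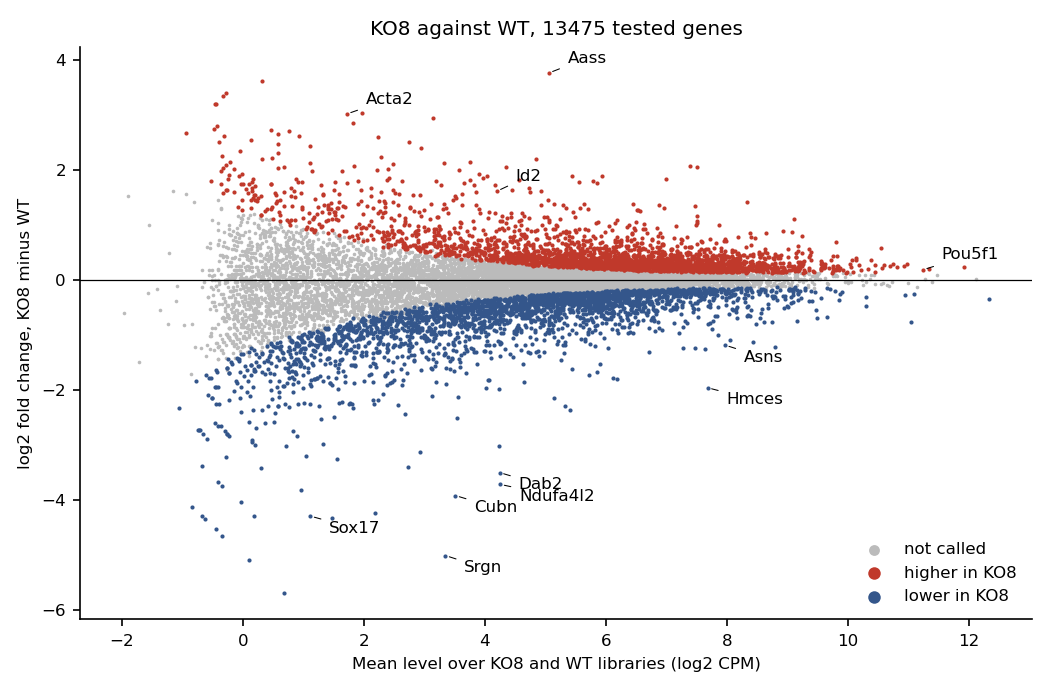
Log2 fold change of KO8 against WT (vertical axis) over mean log2 CPM of the KO8 and WT libraries (horizontal axis) for the 13475 tested genes. Red points were called higher, blue points lower and grey points were not called by edgeR at an adjusted p under 0.05. Srgn, Cubn, Ndufa4l2, Dab2 and Sox17 lie far below 0, Aass and Acta2 far above it, and most called genes lie within 2-fold.

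Among genes with at least 10 counts in the lower group, Srgn had the largest fall. It encodes serglycin, a proteoglycan of secretory granules. Srgn had 0.737 and 0.485 CPM in KO8, 3.10 and 4.11 CPM in KO7 and 20.6 and 18.96 CPM in WT. The groups did not overlap, with KO7 in between. Srgn fell by 5.0 ± 0.27 in KO8 (edgeR adjusted p = 2.96e-11) and was lower in KO8 than in KO7 by a log2 difference of -2.53 ± 0.37 (edgeR adjusted p = 2.71e-05). Of the 12 largest falls, 4 were genes of the visceral endoderm surface or its endocytic machinery, namely Cubn, Dab2, Pdgfra and Amn, and their values are given with the endoderm genes. Ndufa4l2, a mitochondrial protein gene that hypoxia is known to induce, fell by 3.71 ± 0.30 (edgeR adjusted p = 1.12e-08). H19, a maternally expressed imprinted noncoding RNA, had 1.37 and 1.75 CPM in KO8, 1.28 and 2.36 CPM in KO7 and 14.8 and 12.7 CPM in WT, a fall of 3.13 ± 0.27 in KO8 (edgeR adjusted p = 2.15e-08). Here KO8 and KO7 overlapped, and both lay far below WT. The protease inhibitor gene A2m fell by 3.01 ± 0.30, or by 2.29 without WT replicate 1, since the WT libraries stood apart at 46.5 and 20.5 CPM. Rhobtb1 (-3.39 ± 0.33), Eml1 (-2.53 ± 0.38), Nxph4 (-2.52 ± 0.27) and Clic6 (-2.48 ± 0.39) complete the 12, with edgeR adjusted p-values of 1.6e-07, 3.2e-05, 4.08e-07 and 4.71e-05.

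Under the same limit the largest rise was that of Aass, the enzyme that opens the main route of lysine breakdown. Aass had 62.8 and 61.5 CPM in KO8, 13.7 and 14.4 CPM in KO7 and 5.03 and 4.03 CPM in WT, so each line held a level of its own. It rose by 3.76 ± 0.13 in KO8 (edgeR adjusted p = 3.47e-14) and exceeded KO7 by 2.14 ± 0.11 (edgeR adjusted p = 1.14e-11). Acta2, the actin gene of smooth muscle, had 6.002 and 5.72 CPM in KO8, 0.68 and 0.514 CPM in KO7 and 0.487 and 0.982 CPM in WT. KO7 and WT overlapped here and KO8 stood apart, by 3.24 ± 0.37 from KO7 (edgeR adjusted p = 1.24e-06) and by 3.02 ± 0.37 from WT (edgeR adjusted p = 2.17e-06). Prkch, a protein kinase C gene, had KO7 slightly above WT and KO8 highest, at 6.74 and 7.18 CPM in KO8, 1.36 and 1.23 CPM in KO7 and 0.811 and 0.884 CPM in WT (3.03 ± 0.32 against WT, edgeR adjusted p = 4.25e-07). Rhox6, a homeobox gene of the X-linked reproductive cluster, had 6.95 and 9.31 CPM in KO8, 0.68 and 0.411 CPM in KO7 and 1.22 and 1.47 CPM in WT, and the protease gene Prss23 had 2.95 and 4.36, 0.831 and 0.822 and 0.649 and 0.687 CPM in the same order. Rhox6 rose by 2.60 ± 0.30 (edgeR adjusted p = 1.43e-06) and Prss23 by 2.44 ± 0.41 (edgeR adjusted p = 8.98e-05) against WT. Nlrp9b, a gene of the oocyte, rose by 2.94 ± 0.24 and the repressor gene Hes3 by 2.48 ± 0.48. Nlrp9b and Rhox6 have close copies in their families, so their counts are uncertain. Ror1, a Wnt receptor gene, rose by 2.85 ± 0.41, Nsg2, a vesicle protein gene of neurons, by 2.61 ± 0.45 and Apol6 by 2.51 ± 0.31. The rise of Ror1 was 2.07 without WT replicate 1 and 4.21 without WT replicate 2, and that of Apol6 was 1.80 and 3.65, because the WT libraries differed, at 0.324 and 1.47 CPM for Ror1 and 0.892 and 3.24 CPM for Apol6. For the genes of this paragraph the edgeR adjusted p was at most 0.00043.

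Some genes were near zero in KO8 but measurable in WT. Ctsh, a lysosomal protease gene, had 0 and 1 counts in the KO8 libraries and 45 and 27 counts in the WT libraries, a ratio of WT to KO8 of 63.4 (95% interval 11.01 to 2536). Pla2g12b, a phospholipase-family gene, had 1 and 0 counts in KO8 and 25 and 22 counts in WT, a ratio of 41.4 (95% interval 7.07 to 1668). Nxf7, an X-linked gene of the RNA export factor family, had 0 and 2 counts in KO8 and 26 and 23 counts in WT, a ratio of 21.6 (95% interval 5.66 to 183). These intervals cover counting error only. No gene met the mirrored condition, with 3 counts or fewer in WT and at least 2 CPM in both KO8 libraries.

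Endoderm genes were lower in KO8 as a group. Of 8 endoderm transcription factors tested, 7 fell, with a median log2 fold change of -2.02 in KO8 and -1.25 in KO7, beside -0.01 for all genes in KO8. Sox17, which specifies endoderm, had 0.211 and 0.194 CPM in KO8, 1.96 and 1.64 CPM in KO7 and 4.54 and 3.73 CPM in WT. The KO8 libraries sat far under both other groups, which lay closer to each other. They were also close to 0.151 CPM, the level that 3 counts over the 2 KO8 libraries give, so the size of the fall rests on few reads. Sox17 fell by 4.29 ± 0.49 (edgeR adjusted p = 1.17e-06), and the log2 difference between KO8 and KO7 was -3.10 ± 0.58 (edgeR adjusted p = 0.000345). Gata6, the factor that sets primitive endoderm against epiblast fate, had 2.32 and 1.75 CPM in KO8, 4.30 and 3.29 CPM in KO7 and 9.25 and 10.4 CPM in WT, a fall of 2.27 ± 0.25 in KO8 (edgeR adjusted p = 7.91e-07). Gata4, which acts with it, had 6.21 and 4.36 CPM in KO8, 6.04 and 7.20 CPM in KO7 and 18.5 and 13.7 CPM in WT, a fall of 1.62 ± 0.20 (edgeR adjusted p = 3.37e-06). For Gata4 the KO8 and KO7 libraries overlapped, and the test between the lines gave an edgeR adjusted p of 0.335. Foxa2 (-2.90 ± 0.55), Hnf4a (-1.78 ± 0.32) and Sox7 (-1.31 ± 0.27) fell as well, with edgeR adjusted p-values of 0.000372, 0.000241 and 0.000709. Foxa1 was near the limit of detection and did not pass the test (-0.07 ± 0.55, edgeR adjusted p = 0.934). In bulk samples fewer cells of a type and less RNA per cell cannot be told apart.

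The 5 surface and endocytic proteins of the visceral endoderm all fell, with a median of -3.25 in KO8 and -1.79 in KO7. Cubn, the gene of the scavenger receptor cubilin, had 1.26 and 1.55 CPM in KO8, 6.12 and 5.86 CPM in KO7 and 21.98 and 20.9 CPM in WT. Dab2, the adaptor that drives uptake of such receptors, had 3.58 and 2.62 CPM in KO8, 9.06 and 11.3 CPM in KO7 and 36.2 and 33.6 CPM in WT. For both genes the 3 groups stood in steps without overlap, with KO8 lowest. Cubn fell by 3.91 ± 0.21 and Dab2 by 3.50 ± 0.18 against WT (edgeR adjusted p = 2.96e-11 and 8.83e-12), and KO8 lay below KO7 by log2 differences of -2.08 ± 0.26 and -1.70 ± 0.21 (edgeR adjusted p = 3.83e-06 and 2.89e-06). Lrp2, the megalin gene, had 34.2 and 25.7 CPM in KO8, 45.2 and 45.03 CPM in KO7 and 51.6 and 61.5 CPM in WT, a fall of 0.92 ± 0.12 (edgeR adjusted p = 3.47e-06). Pdgfra, the receptor that marks primitive endoderm, fell by 3.25 ± 0.41, and Amn, the partner that anchors cubilin in the membrane, by 2.98 ± 0.41 (edgeR adjusted p = 3.45e-06 and 1.06e-05). Their KO8 levels were 0.632 and 0.485 CPM and 0.632 and 0.485 CPM, against 5.60 and 5.11 CPM and 4.79 and 4.12 CPM in WT.

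**Figure D2:**
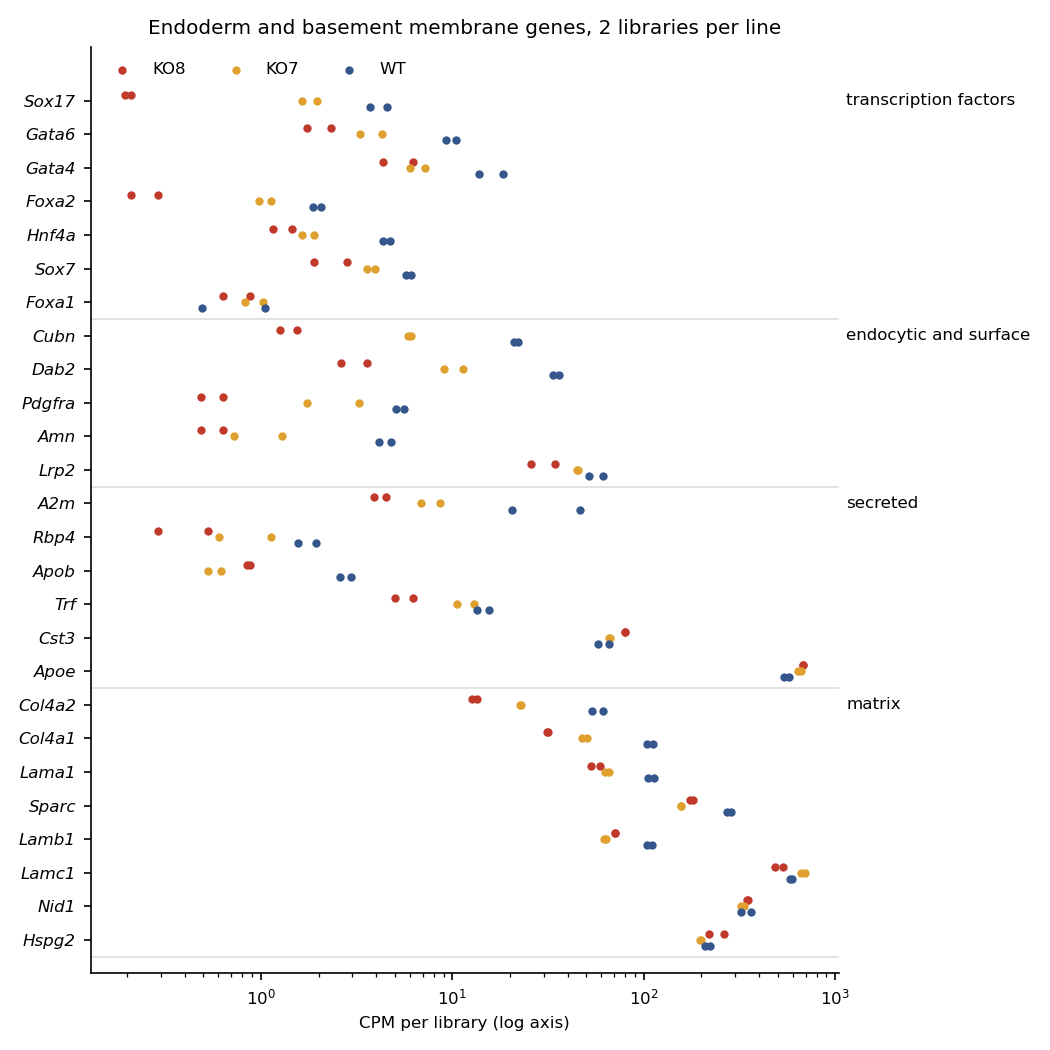
CPM per library on a log axis for endoderm transcription factors, visceral endoderm endocytic and surface proteins, secreted proteins and basement membrane genes, with KO8, KO7 and WT libraries as separate points. Cubn, Dab2, Sox17 and Col4a1 show KO8 lowest, KO7 between and WT highest, and Apoe and Cst3 show KO8 above WT.

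Secreted proteins of the endoderm were mixed. Afp, Apoa1, Apoa4, Ttr and Fgg were too low to test in a list of 11, and of the 6 tested 4 fell and 2 rose. Trf, the transferrin gene, had 6.21 and 5.04 CPM in KO8, 12.9 and 10.6 CPM in KO7 and 13.4 and 15.5 CPM in WT, a fall of 1.36 ± 0.18 (edgeR adjusted p = 9.06e-06) in which KO8 lay under both other groups. Apob, the structural apolipoprotein of lipoproteins, fell by 1.67 ± 0.40 (edgeR adjusted p = 0.00245). Rbp4, a carrier of retinol, fell by 2.10 ± 0.54 (edgeR adjusted p = 0.00441), and its call was lost without KO8 replicate 2 (-1.73, edgeR adjusted p = 0.0832). Apoe (0.28 ± 0.05) and the protease inhibitor Cst3 (0.37 ± 0.08) rose (edgeR adjusted p = 0.000228 and 0.000918). Of 8 basement membrane genes 6 fell, with medians of -0.62 in KO8 and -0.77 in KO7. Col4a1 had 31.2 and 31.7 CPM in KO8, 47.6 and 50.7 CPM in KO7 and 112 and 104 CPM in WT, and its partner chain Col4a2 13.48 and 12.6 CPM in KO8, 22.5 and 22.9 CPM in KO7 and 61.2 and 53.5 CPM in WT. Col4a1 fell by 1.78 ± 0.08 and Col4a2 by 2.14 ± 0.11 (edgeR adjusted p = 3.36e-12 and 1.51e-11). The laminin genes Lama1 (-0.96 ± 0.08) and Lamb1 (-0.60 ± 0.07) and the matrix protein gene Sparc (-0.65 ± 0.06) fell at edgeR adjusted p-values of 1.11e-08, 1.42e-06 and 3e-08, while Nid1 (0.02 ± 0.06) and Hspg2 (0.17 ± 0.07) did not pass. Lamc1 fell by 0.21 ± 0.06 (edgeR adjusted p = 0.00627), a call lost without KO8 replicate 2 (-0.13, edgeR adjusted p = 0.205).

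The integrated stress response slows general translation when amino acids or folding capacity run short, through kinases that phosphorylate the initiation factor eIF2, and lets the factor ATF4 be made. ATF4 then raises genes for amino acid synthesis, uptake and tRNA charging by binding a promoter element with the letters TGATGNAAN. That motif was searched on both strands of the RefSeq promoter windows (250 bases before to 50 after each gene start, GRCm38.p6). It was found in 2.58% of 10642 tested genes with a window and in 13 of 34 genes (38.2%) of the 4 lists described next. It was in 0 of the 26 hypoxia and glycolysis genes with a window. The stretches around the motif in 5 genes that fell in KO8 follow, 5′ to 3′ on the strand of the gene, with the motif or its reverse complement in capitals. The 4 lists hold the kinds of genes that ATF4 is known to raise. Their high share of the motif was therefore likely in advance and is no result about KO8. A match describes the letters only. The Asns stretch is kept short because the GENCODE annotation places the start of Asns upstream of the RefSeq start.
Asns promoter, chr6:7693214-7693243, minus strand: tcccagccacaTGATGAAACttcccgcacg
Pycr1 promoter, chr11:120643818-120643877, minus strand: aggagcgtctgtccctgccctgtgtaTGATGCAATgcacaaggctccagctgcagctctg
Chac1 promoter, chr2:119351022-119351081, plus strand: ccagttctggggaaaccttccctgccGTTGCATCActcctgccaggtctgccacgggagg
Atf3 promoter, chr1:191183411-191183470, minus strand: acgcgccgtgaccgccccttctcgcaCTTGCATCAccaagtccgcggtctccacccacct
Nupr1 promoter, chr7:126625548-126625607, minus strand: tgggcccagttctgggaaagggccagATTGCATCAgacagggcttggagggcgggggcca

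All 10 amino acid synthesis genes tested fell in KO8, with a median of -0.80. Of the 10 genes, 8 were also lower in KO8 than in KO7, beside 14.3% of all tested genes. The median of KO7 against WT was -0.33. Asns, which makes asparagine and carries the motif 23 bases before its RefSeq start, had 154 and 153 CPM in KO8, 258 and 259.6 CPM in KO7 and 371 and 325 CPM in WT. The 3 groups did not overlap and KO8 was lowest. Asns fell by 1.18 ± 0.06 (edgeR adjusted p = 2.2e-11), and the log2 difference between KO8 and KO7 was -0.75 ± 0.06 (edgeR adjusted p = 1.79e-08). The serine route fell too, though KO7 was not a step between KO8 and WT for each of its genes. Phgdh, its first enzyme, had 5.05 and 5.92 CPM in KO8, 9.97 and 11.4 CPM in KO7 and 8.36 and 11.9 CPM in WT, with KO8 below both (0.86 ± 0.21 lower than WT, edgeR adjusted p = 0.00274). Psat1 fell by 0.51 ± 0.06 and Psph by 0.56 ± 0.08, and both lay below KO7, by log2 differences of -0.43 ± 0.06 and -0.43 ± 0.08 (edgeR adjusted p = 1.09e-05 and 0.000591). Shmt2, which moves the serine carbon into the mitochondrial folate pool, had 236 and 229 CPM in KO8, 307 and 316 CPM in KO7 and 347 and 326 CPM in WT. KO7 and WT lay close together there, and KO8 stood apart (log2 difference from KO7 of -0.42 ± 0.06, edgeR adjusted p = 6.77e-06). Mthfd2, the next enzyme in that pool, fell by 0.89 ± 0.06 against WT. Proline synthesis fell through Aldh18a1 (-0.88 ± 0.08) and Pycr1 (-0.97 ± 0.10), with Pycr1 at 42.5 and 38.6 CPM in KO8, 59.1 and 60.6 CPM in KO7 and 87.9 and 70.1 CPM in WT. Cth (-0.54 ± 0.07) and Cbs (-0.73 ± 0.10), which make cysteine from methionine, fell too, and for them no difference between KO8 and KO7 passed (edgeR adjusted p = 0.675 and 0.0724). Over the 10 genes the edgeR adjusted p against WT was at most 0.00274. Asns and Mthfd2 lie on chromosome 6, whose genes were lower in KO8 as a whole. The other 8 all fell, with a median of -0.65.

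Of 9 amino acid transporters 6 fell and 2 rose, with medians of -0.69 in KO8 and -0.12 in KO7, and 1 rose with a KO8 library or WT replicate 1 left out. Slc7a5, the large neutral amino acid carrier, had 576 and 562 CPM in KO8, 913 and 946 CPM in KO7 and 731 and 748 CPM in WT. KO8 was below WT and KO7 above it. Slc7a5 fell by 0.38 ± 0.05 in KO8 (edgeR adjusted p = 7.68e-06) and rose by 0.33 ± 0.05 in KO7 (edgeR adjusted p = 3.09e-05). Slc3a2, the heavy chain that it pairs with, had 395 and 400.5 CPM in KO8, 549 and 543 CPM in KO7 and 485 and 498 CPM in WT, with the same order of groups (-0.30 ± 0.05 in KO8, edgeR adjusted p = 0.000103). Slc7a5 lies on chromosome 8, whose genes had a median log2 difference between KO8 and KO7 of -0.31, while Slc3a2 lies on chromosome 19. The cationic carrier Slc7a1 fell by 0.69 ± 0.05, the glutamine carrier Slc1a5 by 0.86 ± 0.07 and the serine and alanine carrier Slc1a4 by 0.98 ± 0.13 (edgeR adjusted p = 9.11e-09, 1.04e-08 and 4.71e-06). Slc38a2, an inducible glutamine carrier, went the other way, with 366 and 371 CPM in KO8 and 269.6 and 285 CPM in WT (0.41 ± 0.05, edgeR adjusted p = 6.13e-06). Slc7a11, the cystine carrier, stood at -1.11 ± 0.48 and did not pass (edgeR adjusted p = 0.073).

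**Figure D3:**
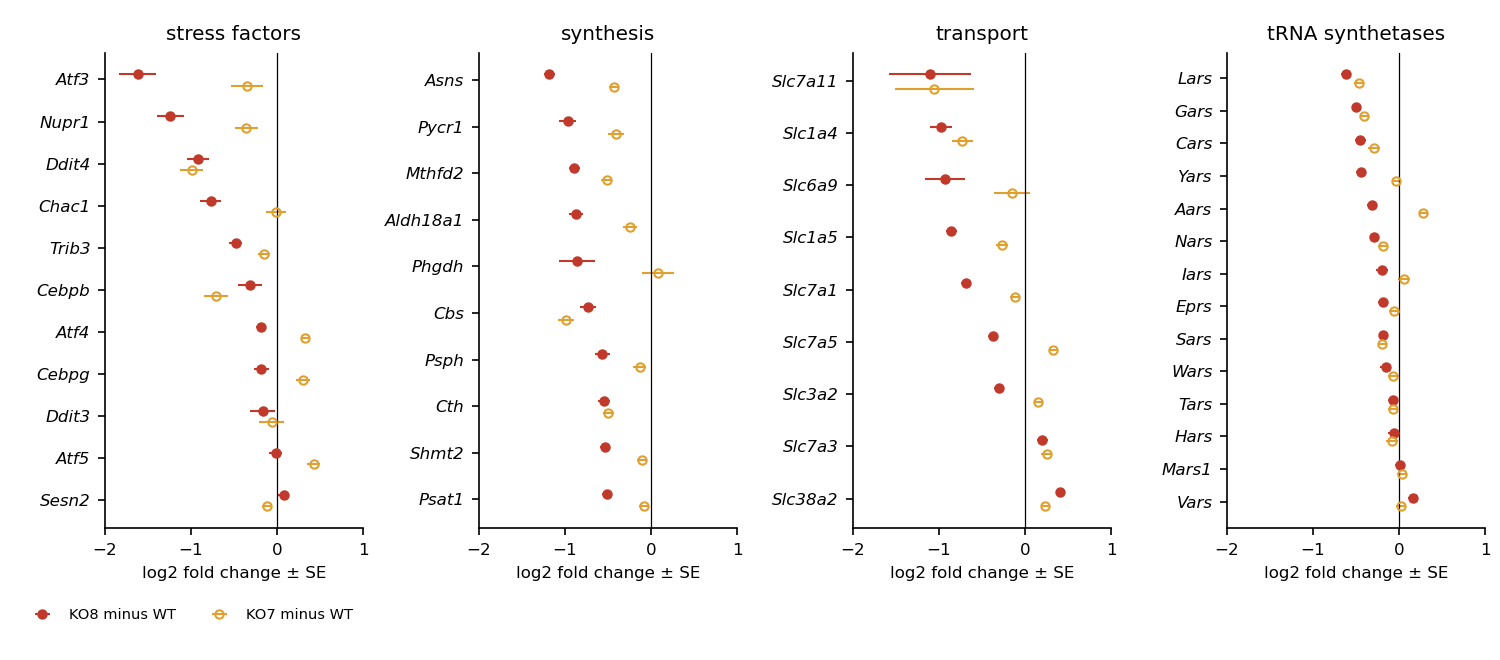
Log2 fold change against WT (± standard error) of genes of the integrated stress response and amino acid supply, with KO8 as filled red points and KO7 as open orange points. In the amino acid synthesis panel all 10 KO8 points lie below 0, from Asns at -1.18 to Psat1 at -0.51.

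Of 14 cytosolic aminoacyl-tRNA synthetases, which charge tRNAs with amino acids, 10 fell and 1 rose, by small amounts (median -0.19 in KO8 and -0.07 in KO7). Lars, the leucine enzyme, fell most, to 202 and 212 CPM in KO8, against 315 and 319 CPM in WT (-0.62 ± 0.06, edgeR adjusted p = 4.67e-08). Aars had 524 and 538 CPM in KO8, 798 and 807 CPM in KO7 and 667 and 658 CPM in WT, and Yars had 214 and 217, 288 and 287 and 301 and 286 CPM in the same order. KO7 was above WT for Aars and overlapped WT for Yars, and KO8 was lowest for both. Aars fell by 0.32 ± 0.05 and Yars by 0.45 ± 0.05 against WT (edgeR adjusted p = 4.8e-05 and 2.55e-06). With each KO8 library left out in turn 6 fell and 0 rose. DESeq2 called 8 members of this list lower and 0 higher, beside 10 and 1 with edgeR, both at an adjusted p under 0.05. The edgeR counts at an unadjusted p under 0.05 were also 10 and 1.

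Among 11 factors and regulators of the response 6 fell in KO8 (median -0.31, KO7 -0.11). Lower in KO8 than in KO7 were 7 of them, beside 14.3% of all tested genes. The transcript of ATF4 itself changed little. Atf4 had 567 and 612 CPM in KO8, 819 and 866 CPM in KO7 and 667 and 676 CPM in WT. Its fall of 0.19 ± 0.05 in KO8 (edgeR adjusted p = 0.00979) lost the call without KO8 replicate 1 (-0.13, edgeR adjusted p = 0.223), whereas the log2 difference of -0.51 ± 0.05 from KO7 passed (edgeR adjusted p = 3.44e-07). Atf3, a repressor induced by stress, had 3.16 and 5.33 CPM in KO8, 9.14 and 11.8 CPM in KO7 and 13.1 and 13.4 CPM in WT. KO8 lay far below the other groups (-1.62 ± 0.22 against WT, edgeR adjusted p = 7.04e-06). Nupr1, a small stress-induced chromatin protein gene, had 8.63 and 7.76 CPM in KO8, 14.7 and 15.6 CPM in KO7 and 20.9 and 17.6 CPM in WT (-1.24 ± 0.15, edgeR adjusted p = 2.86e-06). Chac1, which degrades glutathione, had 37.6 and 52.5 CPM in KO8, 67.7 and 86.4 CPM in KO7 and 80.5 and 73.6 CPM in WT. KO7 overlapped WT, and KO8 lay below both by 0.77 ± 0.12 against WT (edgeR adjusted p = 4.9e-05) and 0.76 ± 0.12 against KO7 (edgeR adjusted p = 6.51e-05). Trib3, a pseudokinase that restrains ATF4, fell by 0.48 ± 0.07 (edgeR adjusted p = 2.94e-05). Ddit4, an inhibitor of mTORC1 that hypoxia also induces, fell by 0.92 ± 0.13 (edgeR adjusted p = 1.54e-05), with WT libraries apart at 179 and 113 CPM. Atf5 (-0.01 ± 0.08), Ddit3 (-0.17 ± 0.15) and Cebpb (-0.31 ± 0.14) did not pass against WT. None of the 4 eIF2 kinase genes or the 2 phosphatase subunit genes was called by edgeR or by DESeq2, and 3 fell without WT replicate 2. At an unadjusted p under 0.05 edgeR gave 3 of these 6, all lower, and Eif2ak4, the kinase that senses uncharged tRNA, stood at -0.24 ± 0.11 (edgeR adjusted p = 0.0762).

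The unfolded protein, heat shock and oxidative stress lists had calls in both directions. Over all tested genes 19.7% fell and 19.3% rose. Of 12 unfolded protein response genes 3 fell and 2 rose (median -0.04), while 5 fell without WT replicate 1 and 1 rose without KO8 replicate 2. Edem1, which sends misfolded glycoproteins to degradation and lies on chromosome 6, fell by 0.67 ± 0.07 and Sdf2l1, a chaperone cofactor, by 0.43 ± 0.08, while Dnajc3, an inhibitor of the eIF2 kinases, rose by 0.43 ± 0.08 (edgeR adjusted p = 1.87e-07, 0.000372 and 0.000486). Herpud1 had 24.3 and 29.3 CPM in KO8, 54.1 and 63.02 CPM in KO7 and 37.2 and 37.8 CPM in WT, and its call against WT (-0.48 ± 0.11, edgeR adjusted p = 0.00175) was lost without KO8 replicate 1 (edgeR adjusted p = 0.0587). Of 12 heat shock genes 1 rose (3 without WT replicate 2), Hsph1 at 0.39 ± 0.07 (edgeR adjusted p = 0.000157), and 1 fell, Bag3 at -0.30 ± 0.08 (edgeR adjusted p = 0.00586, and 0.0796 without KO8 replicate 2), with a median of 0.03. Of 11 oxidative stress genes 4 rose and 1 fell (median 0.15), while 1 rose without KO8 replicate 1, 2 without KO8 replicate 2, and none fell in both cases. DESeq2 called 3 of these higher and 0 lower, beside 4 and 1 with edgeR, both at an adjusted p under 0.05. The edgeR counts at an unadjusted p under 0.05 were 6 higher and 2 lower. Gsr, glutathione reductase, had 124 and 124 CPM in KO8, 191 and 194 CPM in KO7 and 105 and 105 CPM in WT, a rise of 0.24 ± 0.06 in KO8 (edgeR adjusted p = 0.00352).

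Cells short of oxygen stabilise hypoxia-inducible factors, which bind a core of the letters ACGTG and raise genes for glucose uptake, glycolysis and adaptation to low oxygen. The core, searched on both strands, was in 29.2% of the 10642 tested genes with a window. It was in 19 of 26 hypoxia and glycolysis genes with a window (73.1%). Those lists hold the kinds of genes that such factors are known to raise, so their high share is no result about KO8. In the 4 stress and amino acid lists 13 of 34 genes with a window held the core (38.2%). These were 5 of 9 synthesis genes, 4 of 8 tRNA synthetases, 3 of 11 stress factors and regulators and 1 of 6 transporters. The stretches around it in 4 genes that fell in KO8 are shown in the same way, with the core or its reverse complement in capitals. CACGTG is a core on each strand overlapping the other.
Ldha promoter, chr7:46845631-46845690, plus strand: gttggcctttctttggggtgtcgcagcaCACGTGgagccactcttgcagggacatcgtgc
Pgk1 promoter, chrX:106186922-106186981, plus strand: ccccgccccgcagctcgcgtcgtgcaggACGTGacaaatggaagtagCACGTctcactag
Egln3 promoter, chr12:54204065-54204124, minus strand: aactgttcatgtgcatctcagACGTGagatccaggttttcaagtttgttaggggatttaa
Bnip3 promoter, chr7:138909583-138909642, minus strand: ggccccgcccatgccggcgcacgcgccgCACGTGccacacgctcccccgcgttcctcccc

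Of 14 hypoxia response genes tested in a list of 16, 10 fell and 1 rose, with medians of -0.86 in KO8 and -0.41 in KO7. Egln3, an oxygen-sensing prolyl hydroxylase that hypoxia induces, had 12 and 15.6 CPM in KO8, 27.1 and 26.01 CPM in KO7 and 90.1 and 51.6 CPM in WT. The groups did not overlap, and the WT libraries were far apart from each other. Egln3 fell by 2.36 ± 0.19 (edgeR adjusted p = 1.11e-08). Ndufa4l2 had 3.37 and 2.13 CPM in KO8, 7.70 and 6.48 CPM in KO7 and 47.7 and 23.3 CPM in WT, and its log2 fold change was -3.08 without WT replicate 1. Vegfa, the angiogenic growth factor gene, had 38.5 and 43.8 CPM in KO8, 65.1 and 76.8 CPM in KO7 and 97.4 and 72.4 CPM in WT. KO7 overlapped WT here and KO8 lay below both, by 1.05 ± 0.12 against WT (edgeR adjusted p = 7.44e-07) and by 0.78 ± 0.12 against KO7 (edgeR adjusted p = 3.98e-05). P4ha1 (-1.45 ± 0.14) and P4ha2 (-1.69 ± 0.22), which hydroxylate collagen prolines, fell (edgeR adjusted p = 1.25e-07 and 5.78e-06), as did the mitophagy receptor gene Bnip3 (-1.72 ± 0.21, edgeR adjusted p = 1.92e-06, and -1.10 without WT replicate 1). Pdk1, which keeps pyruvate out of the mitochondria, fell by 0.40 ± 0.06 (edgeR adjusted p = 3.75e-05). Kdm3a, a histone demethylase gene known as a hypoxia target, rose to 315 and 303 CPM in KO8, against 174 and 204 CPM in WT (0.71 ± 0.07, edgeR adjusted p = 6.33e-08), although it lies on chromosome 6. The summed level of the list was 1093 and 1117 CPM in KO8, 1172 and 1180 CPM in KO7 and 1630 and 1295 CPM in WT. The fall thus depended in size on WT replicate 1. Without it the median was -0.71 with 9 members lower, and without WT replicate 2 it was -1.24 with 12 lower.

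Of 16 genes of glucose uptake and glycolysis 13 fell, with medians of -0.69 in KO8 and -0.36 in KO7. Their summed level was 4775 and 4681 CPM in KO8, 5540 and 5381 CPM in KO7 and 8299 and 6824 CPM in WT, without overlap. Slc2a3, the high-affinity glucose carrier, had 1597 and 1558 CPM in KO8, 1613 and 1618 CPM in KO7 and 2966 and 2358 CPM in WT, a fall of 0.76 ± 0.07 in which KO8 and KO7 lay together (edgeR adjusted p = 7.82e-08 against WT and 0.762 against KO7). Hk2, which traps glucose by phosphorylation, fell by 0.54 ± 0.05, and Pfkl, a subunit of the enzyme that commits it to glycolysis, by 0.74 ± 0.07 (edgeR adjusted p = 1.84e-07 and 7.4e-08). Aldoa had 258 and 261 CPM in KO8, 352 and 323 CPM in KO7 and 494 and 411 CPM in WT (-0.80 ± 0.07, edgeR adjusted p = 2.97e-08). Ldha, which makes lactate, had 539.9 and 558 CPM in KO8, 786 and 748 CPM in KO7 and 954 and 819 CPM in WT. KO8 was lowest for both, and for Ldha it lay below KO7 by a log2 difference of -0.48 ± 0.06 (edgeR adjusted p = 4.88e-06). Ldha fell by 0.69 ± 0.06 against WT (edgeR adjusted p = 4.31e-08), and Pgk1 by 0.69 ± 0.10 and Tpi1 by 1.00 ± 0.09 (edgeR adjusted p = 1.74e-05 and 3.41e-08). Gapdh, Eno1 and Pgam1 did not pass. They have many near-identical copies in the genome, so their counts are uncertain. Copies of the genes that fell were not examined, so the same may hold for some of those. The fall of the list was smaller without WT replicate 1 (median -0.53) than without WT replicate 2 (-0.85), with 13 members lower each time. Away from chromosome 6, which holds Slc2a3, Hk2, Tpi1 and Gapdh, 10 of 12 fell.

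**Figure D4:**
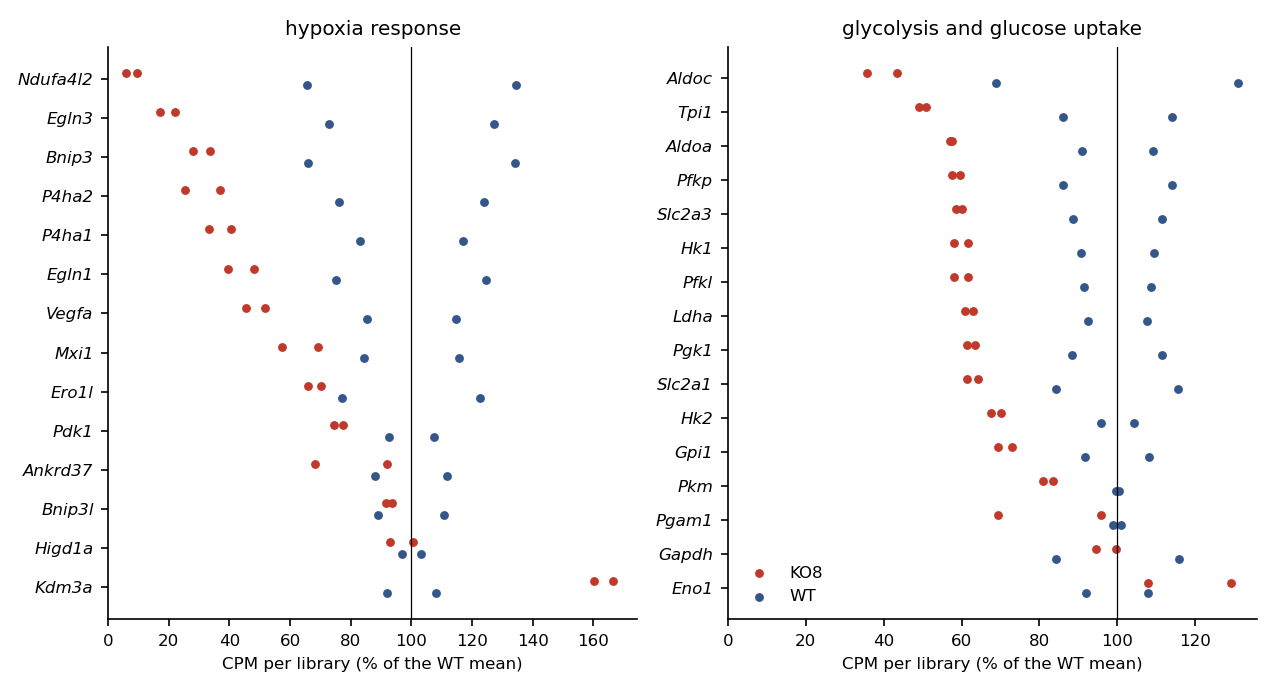
CPM per library as a percentage of the WT mean for hypoxia response genes (left) and glycolysis genes (right), with KO8 in red and WT in blue. The KO8 points of Egln3, Vegfa and Ldha lie below both WT points, and the WT points are far apart for Egln3, Bnip3 and Ndufa4l2.

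The series turns on Nodal/activin and BMP signalling, which reach the genome through SMAD2 and SMAD3 or through SMAD1 and SMAD5. Of 10 Nodal/activin targets tested in KO8, 5 fell and 1 rose (median -0.31). Without KO8 replicate 1, when 11 were tested, none rose and the median was -0.71. With each WT library left out in turn 2 genes rose. Lefty2, a secreted Nodal antagonist, had 83.7 and 83.01 CPM in KO8, 169.6 and 158 CPM in KO7 and 129 and 144 CPM in WT, so that KO8 lay below WT and KO7 above it. Its fall in KO8 was 0.71 ± 0.07 (edgeR adjusted p = 1.83e-07). Lefty1, its neighbouring paralogue, fell by 0.76 ± 0.08, the co-receptor gene Tdgf1 by 0.75 ± 0.08 and the inhibitory SMAD gene Smad7, which both pathways induce, by 1.09 ± 0.06 (edgeR adjusted p = 4.85e-07, 5.81e-07 and 1.23e-11). Reads of Lefty1 and Lefty2 could be split between them, since the genes are similar. Nodal itself, at 0.05 ± 0.06, did not pass (edgeR adjusted p = 0.549). Of 10 BMP targets 5 rose and 3 fell (median 0.19). Id3, an inhibitor of basic helix-loop-helix factors, had 48.8 and 48.8 CPM in KO8, 21.7 and 19.6 CPM in KO7 and 21.5 and 28.3 CPM in WT, with KO8 alone apart (0.98 ± 0.11 against WT and 1.23 ± 0.12 against KO7, edgeR adjusted p = 1.29e-06 and 7.94e-08). Id2 had 27.9 and 27.3 CPM in KO8, 28.6 and 26.4 CPM in KO7 and 7.46 and 10.8 CPM in WT, with the knockout lines together (1.61 ± 0.15 against WT, edgeR adjusted p = 5.14e-08). Id1 rose by 0.34 ± 0.07 and the inhibitory SMAD gene Smad6 by 0.55 ± 0.13, while the phosphatase gene Dusp9 (-0.69 ± 0.06) and the transcription factor gene Tbx3 (-0.65 ± 0.06) fell (edgeR adjusted p = 0.00052, 0.00272, 1.81e-08 and 2.17e-08). Of 21 ligands, antagonists, receptors and SMADs tested, 4 rose and 4 fell, beside 19.3% and 19.7% of all tested genes. The number that rose was 1 without KO8 replicate 1, and 2 without KO8 replicate 2, without WT replicate 1 or with DESeq2. Falls included the ligand gene Bmp7 (-1.49 ± 0.20) and the receptor genes Acvr1b (-0.58 ± 0.07) and Bmpr2 (-0.50 ± 0.09), at edgeR adjusted p-values of 8.04e-06, 4.32e-06 and 0.000237, and Smad1 to Smad5 did not pass.

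Pluripotency genes kept high levels in KO8 and moved in both directions, beside 19.3% of all tested genes higher and 19.7% lower. Of 15 naive genes 6 fell and 2 rose. Klf2 had 758 and 758 CPM in KO8, 826 and 849 CPM in KO7 and 339 and 364 CPM in WT, a rise of 1.11 ± 0.05, whereas Klf4, a factor of the same family, had 292 and 292 CPM in KO8, 381 and 395 CPM in KO7 and 499.8 and 489 CPM in WT, a fall of 0.76 ± 0.05 (edgeR adjusted p = 5.8e-12 and 1.09e-09). Nr0b1 rose by 0.85 ± 0.08 and Tcl1 fell by 0.62 ± 0.06 (edgeR adjusted p = 1.38e-07 and 3.51e-07), and Esrrb (-0.03 ± 0.05) and Zfp42 (-0.01 ± 0.05) did not pass. Of 11 general pluripotency genes 6 rose and 2 fell, with the RNA-binding protein gene Lin28a at 0.50 ± 0.07 and Sall4 at 0.41 ± 0.07 (edgeR adjusted p = 9.03e-06 and 0.000104). Of 12 formative and primed genes 4 rose and 2 fell, while none fell without KO8 replicate 1 and 1 without KO8 replicate 2, WT replicate 1 or KO7 replicate 1. Dnmt3b, a de novo DNA methyltransferase, had 308 and 321 CPM in KO8, 162 and 174 CPM in KO7 and 184 and 193 CPM in WT, so that KO8 lay above both (0.74 ± 0.06 against WT, edgeR adjusted p = 6.93e-09), and the neural plate factor Zic2 had 46.2 and 56.05 CPM in KO8, 55.8 and 56.3 CPM in KO7 and 19.15 and 20.2 CPM in WT (1.38 ± 0.11, edgeR adjusted p = 6.08e-09).

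Markers of other lineages were called in both directions, beside 19.3% of all tested genes higher and 19.7% lower. Of 7 primitive streak and mesoderm genes tested 4 rose, at low levels and with a median of 1.16. Without KO8 replicate 1 the median was 0.34, with 2 called higher and 1 lower of 8 tested, and with chromosome 6 genes left out it was 0.42. Evx1, a streak homeobox gene, had 2.74 and 3.20 CPM in KO8, 1.06 and 1.13 CPM in KO7 and 0.487 and 0.393 CPM in WT (2.71 ± 0.44, edgeR adjusted p = 7.53e-05), and Wnt3, which starts the streak, had 1.895 and 1.84 CPM in KO8, 1.59 and 0.822 CPM in KO7 and 0.162 and 0.491 CPM in WT (2.54 ± 0.57, edgeR adjusted p = 0.00163). The log2 fold change of Wnt3 was 1.91 without WT replicate 1 and 3.44 without WT replicate 2. DESeq2 called 3 of these 7 higher and 0 lower. Of 7 neuroectoderm genes 5 rose (median 0.58). Pax6 had 8.84 and 7.85 CPM in KO8, 6.34 and 6.58 CPM in KO7 and 2.19 and 2.46 CPM in WT (1.84 ± 0.24, edgeR adjusted p = 4.38e-06), and the filament gene Nes 31.3 and 32.97 CPM in KO8, 21.4 and 18.1 CPM in KO7 and 17.4 and 18.8 CPM in WT (0.83 ± 0.12, edgeR adjusted p = 1.33e-05). Pax6 was high in both lines, whereas Nes in KO7 overlapped WT and KO8 exceeded KO7 by 0.69 ± 0.11 (edgeR adjusted p = 0.000101). Sox1, the earliest neural factor of the list, stood at -0.32 ± 0.15 (edgeR adjusted p = 0.0924). Of 10 trophectoderm genes 3 rose and 1 fell (none with a KO8 library or WT replicate 1 left out, and 2 without WT replicate 2), and 6 were higher in KO8 than in KO7. Over all tested genes 13.9% were higher in KO8 than in KO7. Tfap2c had 136 and 131 CPM in KO8, 60.2 and 57.1 CPM in KO7 and 57.3 and 54.8 CPM in WT, a rise of 1.25 ± 0.07 with KO7 and WT close together (edgeR adjusted p = 4.67e-11). Krt8, a keratin of simple epithelia, rose by 0.90 ± 0.19 (edgeR adjusted p = 0.00109), Cdx2 (0.81 ± 0.52) did not pass, and Elf5 and Gata3 were too low to test. Of 11 germline genes 2 rose, among them Prdm1 (1.08 ± 0.15, edgeR adjusted p = 1.42e-05), and 3 fell. The number that fell was 1 without WT replicate 1 and 5 without WT replicate 2, and 1 rose with a KO8 library or WT replicate 1 left out. Of the 4 fibroblast markers measured 3 fell, among them Pdgfrb, at 4.95 and 4.17 CPM in KO8, 3.40 and 3.60 CPM in KO7 and 13.9 and 10.6 CPM in WT (-1.44 ± 0.21, edgeR adjusted p = 1.74e-05). The summed level of all 9 was 237 and 236 CPM in KO8 and 232 and 267 CPM in WT, most of it Vim, which many cell types express. Their part in the falls of matrix and endoderm genes was not tested.

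At the imprinted Dlk1-Dio3 region, where noncoding RNAs come from the maternal copy, 4 of 6 genes rose with a median of 1.84. Meg3 had 93.9 and 77.5 CPM in KO8, 98.3 and 86.6 CPM in KO7 and 23.9 and 25.6 CPM in WT, and Rian had 92.7 and 101, 96.4 and 94.8 and 26.04 and 26.3 CPM in the same order. For both genes the knockout lines overlapped far above WT. Meg3 rose by 1.79 ± 0.10, Rian by 1.89 ± 0.08 and Mirg by 2.39 ± 0.22 (edgeR adjusted p = 5.17e-11, 1.22e-12 and 7.01e-08), while Dlk1 (0.39 ± 0.31) and Dio3 (0.51 ± 0.37), expressed from the paternal copy, did not pass. The 4th call was Rtl1, also expressed from the paternal copy and opposite a maternal antisense RNA, with 18 and 8 counts in the KO8 libraries and 1 and 2 counts in the WT libraries, a ratio of KO8 to WT of 9.85 (95% interval 3.02 to 50.9, edgeR adjusted p = 0.00233). Its reads cannot be told apart from those of the antisense RNA. Of 19 imprinted genes elsewhere 7 rose and 7 fell, and 4 rose without KO8 replicate 1. Igf2, a growth factor gene next to H19, had 21.6 and 20.9 CPM in KO8, 9.14 and 8.64 CPM in KO7 and 8.36 and 9.92 CPM in WT. KO7 overlapped WT and KO8 was higher, by 1.22 ± 0.15 against WT (edgeR adjusted p = 1.84e-06), whereas H19 was low in both lines. Peg3 rose by 1.27 ± 0.09 and Phlda2, which restrains placental growth, fell by 1.84 ± 0.14 (edgeR adjusted p = 1.03e-09 and 4.77e-09). Gnas had 122 and 115 CPM in KO8, 201 and 205 CPM in KO7 and 199 and 198 CPM in WT, a fall in KO8 alone of 0.75 ± 0.06 against WT and 0.78 ± 0.06 against KO7 (edgeR adjusted p = 8.93e-09 and 3.96e-09).

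HMCES acts on abasic sites, so repair genes were listed too. Over all tested genes 19.3% rose and 19.7% fell. Of 20 base excision repair and DNA demethylation genes tested 5 rose and 5 fell, while 3 rose with a KO8 library left out or with DESeq2 and 3 fell without KO8 replicate 2. Apex1, which cuts abasic sites, had 466 and 464 CPM in KO8, 431 and 438 CPM in KO7 and 299 and 351 CPM in WT, a rise of 0.52 ± 0.06 (edgeR adjusted p = 2.18e-06). Smug1, a uracil glycosylase gene, fell by 0.41 ± 0.09, Neil2 by 0.67 ± 0.16 and Tet3, on chromosome 6, by 0.56 ± 0.12 (edgeR adjusted p = 0.00147, 0.00271 and 0.000729). Ung, at -0.06 ± 0.06, did not pass (edgeR adjusted p = 0.396). Of 14 p53 targets 5 rose (2 without KO8 replicate 2) and 3 fell against WT, and 10 were higher in KO8 than in KO7. Over all tested genes 13.9% were higher in KO8 than in KO7. Cdkn1a, the inhibitor that arrests the cell cycle, had 54.1 and 54.7 CPM in KO8, 72.3 and 67.5 CPM in KO7 and 103 and 85.9 CPM in WT, a fall of 0.80 ± 0.09, and the apoptosis gene Pmaip1 fell by 1.13 ± 0.12 (edgeR adjusted p = 4.83e-07 and 2.84e-07). Perp, a desmosomal apoptosis effector, had 108 and 112 CPM in KO8, 40.6 and 41.9 CPM in KO7 and 60.2 and 63.1 CPM in WT. KO8 lay above WT and KO7 below it (0.84 ± 0.07 in KO8, edgeR adjusted p = 2.2e-08).

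Among 8 retinoic acid genes tested 3 fell. The counts of this paragraph stand beside 19.7% of all tested genes lower and 19.3% higher. Cyp26a1, which breaks down retinoic acid and is induced by it, had 0.105 and 0.388 CPM in KO8, 0.906 and 0.103 CPM in KO7 and 5.19 and 5.40 CPM in WT. The knockout libraries all lay near the detection limit, and the log2 fold change of -4.33 ± 0.54 (edgeR adjusted p = 3.48e-06) was -3.73 without KO8 replicate 1 and -5.50 without KO8 replicate 2. Crabp1, a retinoic acid carrier, had 6.002 and 7.56 CPM in KO8, 14.95 and 14.1 CPM in KO7 and 18.98 and 16.01 CPM in WT (-1.37 ± 0.17, edgeR adjusted p = 2.25e-06), and Stra8 fell by 2.10 ± 0.25 (edgeR adjusted p = 1.64e-06). Of 10 Wnt targets 3 rose (1 with DESeq2) and 3 fell. Dkk1, a secreted Wnt antagonist, had 1 and 1 counts in the KO8 libraries and 19 and 22 counts in the WT libraries, a ratio of WT to KO8 of 18.04 (95% interval 4.68 to 154), while Sp5 rose by 1.25 ± 0.25 and Cdx1 fell by 1.19 ± 0.24 (edgeR adjusted p = 0.000515 and 0.000516). Of 9 feedback genes of FGF and ERK signalling 4 rose and 2 fell. Dusp4, an ERK phosphatase, had 64.7 and 58.3 CPM in KO8, 29.3 and 29.5 CPM in KO7 and 24.6 and 27.99 CPM in WT (1.23 ± 0.10, edgeR adjusted p = 8.93e-09), and KO8 exceeded KO7 by 1.06 ± 0.10 (edgeR adjusted p = 4.2e-08), while Dusp6 (-0.34 ± 0.06) and Etv4 (-0.54 ± 0.07) fell (edgeR adjusted p = 0.00018 and 2.26e-06). Of 9 immediate early genes 2 fell, or 1 without KO8 replicate 2, and 3 rose without WT replicate 2.

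Chromosome 6, which carries Hmces, was lower in KO8 as a whole. Of its 638 tested genes 490 had a log2 fold change below 0. In total 270 were called lower (42.3%), against 18.6% of the genes elsewhere, and 42 were called higher (6.58%). Its median was -0.24, and the medians of the other autosomes and of the X chromosome lay from -0.064 to 0.080. The Y chromosome had 3 tested genes, with a median of -0.69. In windows of 10 Mb, all 13 windows of chromosome 6 had medians between -0.405 and -0.158. Of the 231 windows of the genome 19 lay below -0.15, and the lowest outside chromosome 6 stood at -0.232. In KO7 the median of chromosome 6 was -0.33, but only part of the chromosome was low. The KO7 window medians lay from -0.084 to 0.127 before 50 Mb and from -0.492 to -0.306 beyond it. In the window of Asns, from 0 to 10 Mb, the median log2 difference between KO8 and KO7 was -0.263. On chromosome 8 the medians were -0.02 in KO8 and 0.26 in KO7. There the KO7 window medians lay from -0.125 to 0.037 before 30 Mb and from 0.217 to 0.430 beyond it. These are descriptions, since neighbouring genes are not independent, and chromosome copy number was not measured. Aass, Evx1 and Kdm3a rose in KO8 in spite of lying on chromosome 6, and Asns, Mthfd2, A2m and Tpi1 fell by more than its median. Genes of the Y chromosome differed between the lines, with Ddx3y at 18.7 and 19.7 CPM in KO8, 54.5 and 58.2 CPM in KO7 and 33.7 and 27.99 CPM in WT (-0.69 ± 0.11 in KO8, edgeR adjusted p = 9.4e-05).

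**Figure D5:**
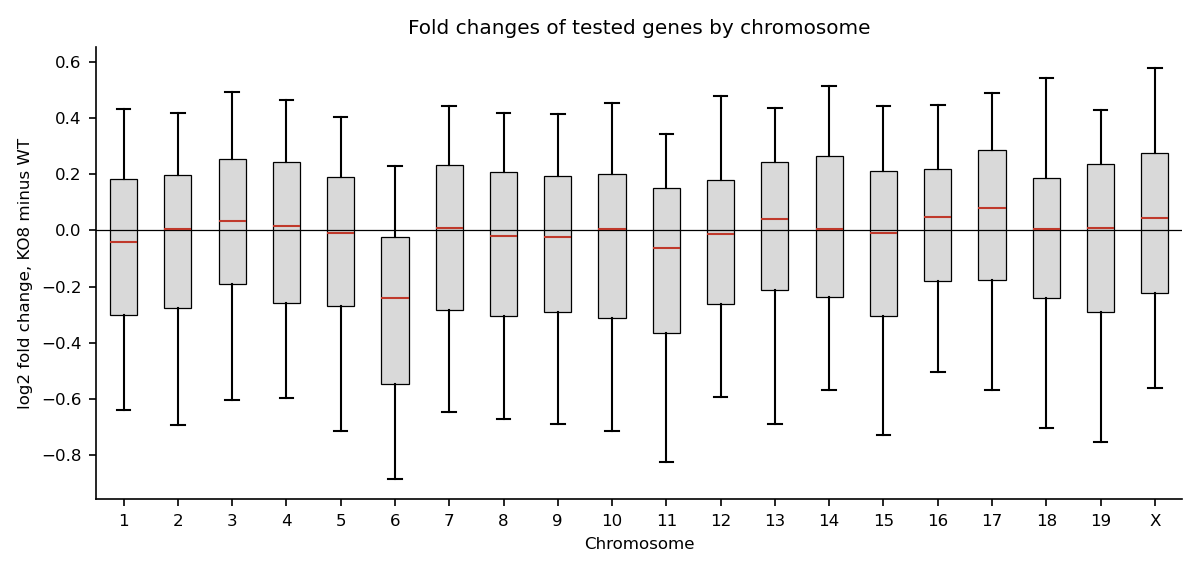
Log2 fold change of KO8 against WT for the tested genes of each chromosome. Boxes span the quartiles, red lines mark medians and whiskers reach the 10th and 90th percentiles. Chromosome 6 has a median of -0.24, and the medians of the other autosomes and of the X chromosome lie between -0.064 and 0.080. The Y chromosome is not drawn.

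The untreated TPM table gives other HMCES-KO and WT libraries, and some genes that fell in KO8 were closer to WT there or above it. Its HMCES-KO columns are named K81 and K82 and its WT columns CCE1 and CCE2, and no source used here says whether the first pair is the KO8 line or whether the second is the WT line of the count table. With 2 libraries against 2 an exact permutation test cannot reach 0.05, so groups were only described as overlapping or not. Over 13314 genes, 39.3% were lower and 23.3% higher in HMCES-KO without overlap. Srgn, low in KO8, had 4.01 and 5.87 TPM in HMCES-KO and 3.86 and 7.53 TPM in WT, which overlap. Only 3 of the 8 endoderm transcription factors passed the TPM filter. Of these 1 was lower and 0 were higher without overlap. The summed level of all 8 was 11.7 and 10.4 TPM in HMCES-KO and 13.2 and 12.2 TPM in WT, lower without overlap. In the count table the sums lay further apart, at 12.8 and 12.2 CPM in KO8 and 48.9 and 43.4 CPM in WT. Gata4 and Sox7 overlapped, and Gata6 was lower. Of 4 visceral endoderm endocytic and surface genes 3 were lower without overlap, and of 5 secreted protein genes 2 were lower and 3 higher. Cubn had 1.40 and 1.25 TPM in HMCES-KO and 1.81 and 1.99 TPM in WT, and Dab2 4.91 and 4.95 TPM in HMCES-KO and 6.52 and 6.07 TPM in WT, lower without overlap but by less than in KO8. All 8 basement membrane genes were lower without overlap, Nid1 and Hspg2 included, which did not pass in KO8, and among them was Col4a1 at 17.7 and 18.6 TPM in HMCES-KO and 21.8 and 20.3 TPM in WT. Of the 10 amino acid synthesis genes 3 were lower and 5 higher without overlap. The related lists differed from it. Of 8 amino acid transporters 6 were lower and 2 higher, and of 14 tRNA synthetases 8 were lower and 3 higher. Among 11 stress factors and regulators 3 were lower and 3 higher, and among 6 eIF2 kinase and phosphatase subunit genes 4 were lower and 0 higher. Asns had 424 and 419.6 TPM in HMCES-KO and 395 and 397 TPM in WT, above WT in this table and below it in KO8. Lefty2 (232 and 222 TPM in HMCES-KO, 86.03 and 80.1 TPM in WT) was higher, and Ndufa4l2 (30.2 and 38.1 TPM in HMCES-KO, 25.99 and 21.1 TPM in WT) was higher too, each opposite to KO8. Of 14 hypoxia response genes with TPM values 7 were lower and 4 higher without overlap, and of 16 glycolysis genes 7 were lower and 3 higher. Id2 (207 and 226 TPM in HMCES-KO, 52.2 and 53.4 TPM in WT), Rian (114 and 110.3 TPM in HMCES-KO, 49.5 and 47.3 TPM in WT) and Aass (10.4 and 11.4 TPM in HMCES-KO, 7.01 and 7.25 TPM in WT) were higher, as in KO8. No source says whether line, culture or preparation differ between the tables, and their parts cannot be told apart.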

How the data were processed

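RNA sequencing libraries of mouse embryonic stem cells were built from total RNA with an Illumina TruSeq kit, per the labels. The deposited count table gives raw counts of read pairs for 25239 genes. The authors made them with featureCounts 2.0.1, paired, over the exons of the mm10 RefSeq annotation, per the file headers. No strand option stands in that command, so reads of a gene and of an overlapping antisense gene cannot be told apart. Bowtie2 2.3.3, SAMtools 1.9, FastQC 0.11.5 and DESeq2 are named per the submitters' processing notes. The untreated TPM table was deposited by the authors, per the file headers. Its library totals in units of 1000000, recovered as whole reads within 0.02, were 10.0 and 8.52 in HMCES-KO and 9.79 and 9.50 in WT, with 100% of the values whole.

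Counts were fitted with edgeR 4.0.16 in R 4.3.3 (TMM, filterByExpr by group, quasi-likelihood test) over KO8, KO7 and WT as 3 groups of 2, with Benjamini-Hochberg adjustment over 13475 genes. The comparisons were KO8 against WT and KO8 against KO7. Those of KO8 and KO7 with WT share the WT libraries, so values are set side by side and differences between the lines come from the direct test. The fit shares 1 spread among the 3 groups. It was first tested on simulated data in which all lines had the same spread. That test cannot show how the uneven spread of the real libraries bears on the p-values. Fold changes are log2, KO8 minus WT unless said, ± standard error. Lists are described by counts and medians, with no set test. The members and lists were chosen with earlier results of these data known. Named genes are Hmces, the 12 largest falls and rises among called genes whose libraries do not overlap (at least 2 CPM in both libraries of the higher group and at least 10 counts in the lower group), genes with up to 3 counts in the lower group, and up to 8 members of each list. TPM levels were compared by overlap only. DESeq2 1.42.0, other scalings, other filters, a replicate block and each library left out were alternatives. Promoter sequences are from RefSeq, GRCm38.p6. The treated libraries of the series were not used here. Results of some listed genes are not reported here.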

Additional observations from a re-analysis of the deposited data

Results flagged for a closer look

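In 20 of the listed genes KO8 and KO7 both passed the test against WT but in opposite directions, and edgeR's direct test of KO8 minus KO7 passed for each, with 2 libraries per line. The genes were picked for those opposite calls, which fixes a large difference between the lines, so the direct test is no independent support and the differences are a description. Among stress and amino acid genes KO8 stood below KO7 by log2 differences of -0.51 for Atf4, -0.71 for Slc7a5, -0.46 for Slc3a2, -0.60 for Aars and -1.12 for Herpud1, and above it by 0.65 for the autophagy receptor gene Sqstm1. Slc7a5, Aars and Herpud1 lie on chromosome 8, whose median difference between the lines was -0.31, and Atf4, Slc3a2 and Sqstm1 do not. Its part in these differences was not tested. Among genes of TGF-beta signalling the difference was -0.98 for Lefty2, 1.12 for Smad6, -0.55 for Inhbb, an activin subunit gene, and 0.74 for Otx2.

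In the pluripotency lists it was 0.91 for Dnmt3b, -0.55 for Dnmt3a and -0.58 for Lin28b, so the pair of de novo methyltransferase genes split between the lines. Dnmt3a had 229 and 246 CPM in KO8, 342 and 354 CPM in KO7 and 265 and 289 CPM in WT, the opposite order to Dnmt3b. The remaining differences were 2.13 for the keratin gene Krt18, 1.33 for the germline gene Tex19.1, 1.42 for Perp, 1.08 for the kinase gene Plk2, 0.68 for Spry2, which restrains ERK, -0.41 for Lamc1 and -1.55 for Ddx3y. Leaving out 1 KO8 library ended the KO8 call against WT for Lamc1, Atf4, Herpud1, Sqstm1, Otx2, Dnmt3a, Lin28b, Krt18, Tex19.1 and Plk2, at edgeR adjusted p-values from 0.0546 for Krt18 without replicate 1 to 0.223 for Atf4 without replicate 1. The calls of KO7 against WT were not examined with a library left out.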

How the results depend on the processing

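Directions held under most settings, while counts of calls depended on the tool and on which library was left out. Beside 5248 genes called between KO8 and WT with edgeR, DESeq2 called 3483, of which 1620 were lower, against 2654. Between KO8 and KO7 DESeq2 called 2408 (3797 with edgeR), 1177 higher and 1231 lower, with 160 at least 2-fold lower, against 247. Leaving out 1 library at a time gave 3230 to 6186 calls between KO8 and WT (1629 to 3122 higher, 1601 to 3064 lower) and 2012 to 5090 between KO8 and KO7 (955 to 2499 higher, 1057 to 2591 lower). Between KO8 and WT the count was 3230 without KO8 replicate 1, 3312 without KO8 replicate 2, 4489 without WT replicate 1 and 6186 without WT replicate 2, and the cause was not tested. With KO8 and WT alone in the fit 4605 genes were called. The share of calls that were higher was 49.4% with TMM, 51.3% with RLE and 43.8% with upper-quartile scaling. Without a filter on TPM, 24.0% of genes were lower and 13.9% higher in HMCES-KO without overlap, beside 39.3% and 23.3%. Without a filter on low counts the median of the BMP targets turned from 0.19 to -0.0919, since more low genes of the list enter it. The counts of endoderm, amino acid synthesis and glycolysis genes that fell were the same, at 7, 5, 10 and 13 for endoderm factors, endocytic proteins, synthesis and glycolysis, with each library left out.

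No shared effect of the replicate number was seen, and whether libraries of the same number were prepared together is not stated. The deviations of replicate 1 from replicate 2 correlated at -0.0245 between KO8 and WT and at -0.0145 between KO8 and KO7, and the replicate block called 5238 genes. Of 368 named genes tested, 367 stayed on their side of the threshold with the block and 340 with DESeq2, and none turned in direction while called. Fewer stayed there with a KO8 or WT library left out than with DESeq2. Near 1 CPM a library holds about 10 counts, so folds of such genes rest on few reads.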
